A study of Mus musculus with 6 samples.

Results

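The 10 genes described here encode enzymes that modify and cross-link collagen and a chaperone that helps it fold: Lox, Loxl1, Loxl2, Loxl3, Loxl4, Plod1, Plod2, Plod3, P4ha3 and Serpinh1. They were chosen by symbol from a count table of 14943 genes, all 10 were present, and all 10 passed the filter on low counts that left 13980 genes tested. The tissue was peritoneum, the serous lining of the abdomen, from wild-type male C57BL/6J mice aged 8 weeks. In the model of encapsulating peritoneal sclerosis (EPS), in which fibrous tissue encases the bowel, 3 libraries came from mice injected intraperitoneally each day with dialysis solution (4.25%, 100 mL/kg) plus SHS (0.3 mL, a name the labels do not explain) and weekly with 4 mg/kg lipopolysaccharide, an endotoxin of bacteria. The 3 control libraries followed injection of the same volume of saline, and tissue was taken in week 3 in both groups. All EPS mice received all 3 agents, so the agents cannot be told apart. The labels number the libraries without saying that each came from a separate mouse, so p-values measure the spread between these libraries.

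Fibrillar collagen is made in the endoplasmic reticulum, where prolyl 4-hydroxylases stabilise the triple helix, lysyl hydroxylases (Plod genes) prepare lysines for cross-links, and the chaperone HSP47, the product of Serpinh1, holds the helix until it leaves. Outside the cell, lysyl oxidases (Lox and Loxl genes), which need copper, oxidise lysines of collagen and elastin so that neighbouring molecules become joined. In fibrosing tissue these enzymes are known for setting how stiff and how resistant to breakdown the deposited collagen becomes.

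The members moved in both directions. Lox, Loxl1, Loxl3, Loxl4 and Plod2 rose in EPS, by 1.64-fold to 2.15-fold. Plod1, Plod3 and Serpinh1 fell, by 1.24-fold to 1.602-fold, and Loxl2 and P4ha3 did not pass the test. The fibrillar collagen genes Col1a1, Col1a2 and Col3a1 rose by 4.84-fold, 3.77-fold and 2.70-fold, more than any of the 10 genes. The call threshold was 0.05 on the adjusted p of edgeR's quasi-likelihood test, by which 29.2% of all tested genes were higher and 30.4% lower, against 5 and 3 of the 10. The CPM of the groups did not overlap for the same 8 members, 5 above and 3 below, against 33.1% and 35.4% of all tested genes. The members' median log2 fold change was 0.72, against -0.02 over all tested genes, and stood at 0.31 without EPS 2.

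These directions are relative to TMM scaling, which sets the typical gene to no change. With library totals alone the median gene moved to 0.41 on the log2 scale, 6 members were called higher and none lower, against 40.5% and 15.6% of all genes, the median of the members was 1.13, and Plod1 turned to a log2 fold change of 0.12 (adjusted p = 0.636). Without EPS 1, 6 members were called higher and 2 lower, against 31% and 28.8% of all genes.

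Libraries held between 15419232 and 17684229 counts. The 10 exocrine pancreas genes checked took 13.5% of the counts of EPS 1 and between 0.0207% and 0.318% in the other 5 libraries. The 6 adipocyte markers all fell, from a summed 16218 to 17413 CPM (read counts scaled to library size) in controls to between 1167 and 1694 CPM in EPS. The 6 neutrophil markers rose from a sum of 4.10 to 4.96 CPM to between 543 and 1872 CPM, the 6 lymphocyte markers from 6.34 to 8.20 CPM to between 481 and 774 CPM, and 5 of 6 macrophage markers rose. Of 7 fibroblast markers, 3 rose and 1 fell, and their sum overlapped between groups (1717 to 1800 CPM in controls, 1521 to 2587 CPM in EPS). With library totals, 4 fibroblast markers were called higher and 0 lower. With 1 library left out, 2 to 4 were called higher, and 0 lower except without EPS 2, where 2 were lower. All 6 blood endothelial markers fell, as did 4 of 6 smooth muscle markers, whose sum of 4754 to 5272 CPM in controls was 1331, 3544 and 1192 CPM in EPS 1 to 3. Among these 4, Tagln was near the floor, at a mean of 1.10 CPM in controls and 0.322 CPM in EPS. With library totals, 4 endothelial and 1 smooth muscle markers were called lower, while all 6 adipocyte markers still were. With 1 library left out, 2 to 5 smooth muscle markers were called lower. None of the 6 mesothelial markers was called with TMM scaling and all libraries. The summed level of the 6, 124 to 194 CPM in controls, was 171, 204 and 39.8 CPM in EPS 1 to 3. Without EPS 3, 2 of them were called higher and 1 lower. With library totals 1 was called higher, and with limma-voom or with replicate number as a block 1 was called lower. Skeletal muscle markers summed to 32.9 to 48.4 CPM in controls and to 7.83, 68.2 and 8.17 CPM in EPS 1 to 3, with 2 of 5 called higher and 1 lower. The 2 higher were near the floor: Mylpf averaged 0.674 CPM in controls and 2.26 CPM in EPS, and Tnnt3 0.611 and 1.49 CPM. The lower one, Ckm, averaged 10.5 and 2.03 CPM. No marker of these lists was at 0 in every library. In these bulk samples fewer cells of a type and less RNA per cell cannot be told apart, and the part of these shifts in the results below was not tested.

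**Figure D1:**
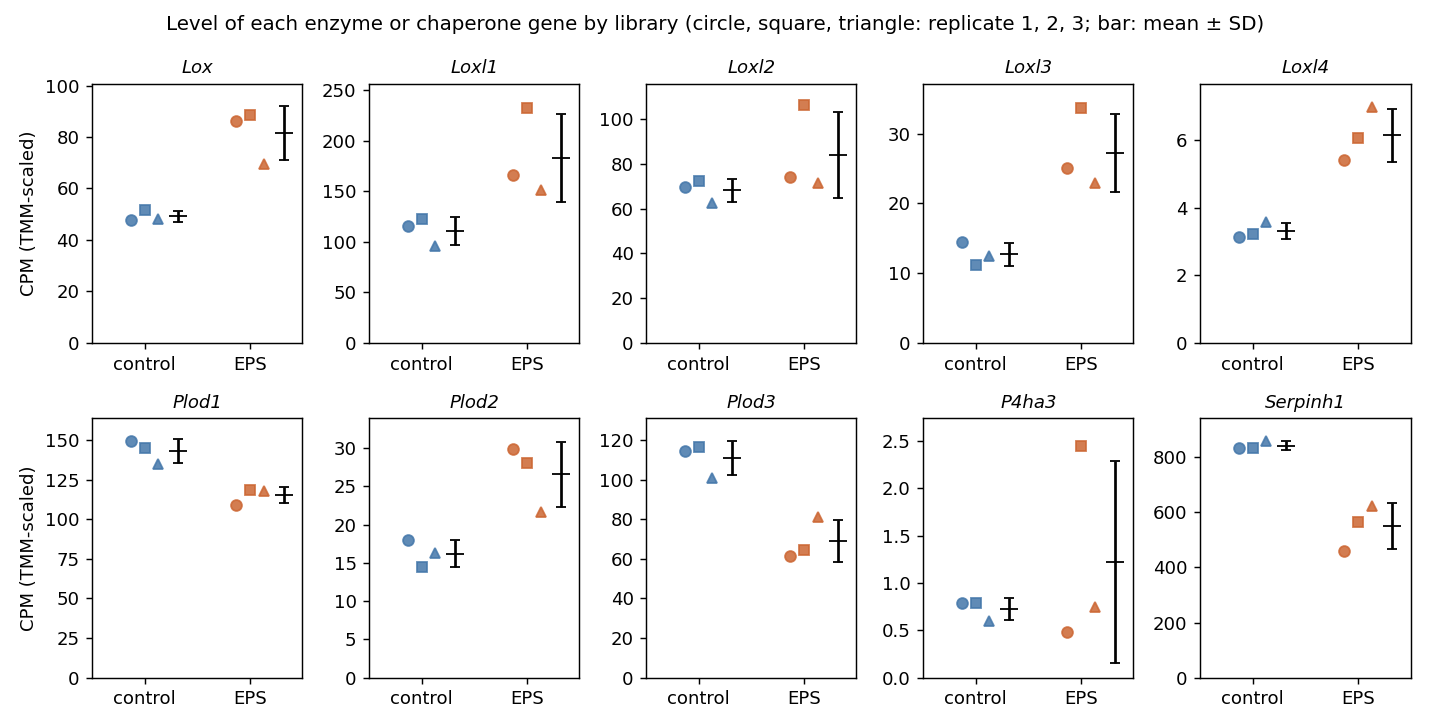
Level of each of the 10 genes in CPM on TMM-scaled library sizes (y axes start at 0) in 3 control and 3 EPS libraries; marks are single libraries and bars the mean ± SD. The EPS libraries lie above all controls for Lox, Loxl1, Loxl3, Loxl4 and Plod2 and below them for Plod1, Plod3 and Serpinh1; with library totals in place of TMM, the groups overlap for Plod1, Plod3 and Serpinh1 and none of these is called.

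Promoter sequence is shown for Serpinh1 and Plod1, members that fell together, and for Loxl4, a member that rose, from the RefSeq promoter table of GRCm38.p6. Of the 10 members, 5 had an entry, and the called members among these are shown where the stretch is free of annotated exons. Each stretch is the 250 bases before the transcription start, 5′ to 3′ on the gene's strand, shortened to 243 bases for Loxl4 where an annotated exon begins. Capitals mark the core of the hypoxia response element (ACGTG or GCGTG, both strands searched), the site of hypoxia-inducible factors, which are known to act on several collagen-modifying genes. Serpinh1 lies at chr7:99353240-99353489, minus strand, Plod1 at chr4:147936777-147937026, minus strand, and Loxl4 at chr19:42612814-42613056, minus strand.
Serpinh1: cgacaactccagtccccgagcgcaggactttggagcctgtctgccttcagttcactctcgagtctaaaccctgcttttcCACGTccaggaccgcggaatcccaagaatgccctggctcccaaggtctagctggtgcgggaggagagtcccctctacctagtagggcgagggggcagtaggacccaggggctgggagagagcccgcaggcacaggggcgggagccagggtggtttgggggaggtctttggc
Plod1: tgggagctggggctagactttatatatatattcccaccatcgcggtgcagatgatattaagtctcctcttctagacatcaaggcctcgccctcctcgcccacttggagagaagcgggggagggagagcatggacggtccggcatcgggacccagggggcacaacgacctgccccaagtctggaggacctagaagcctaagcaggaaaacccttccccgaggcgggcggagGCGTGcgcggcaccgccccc
Loxl4: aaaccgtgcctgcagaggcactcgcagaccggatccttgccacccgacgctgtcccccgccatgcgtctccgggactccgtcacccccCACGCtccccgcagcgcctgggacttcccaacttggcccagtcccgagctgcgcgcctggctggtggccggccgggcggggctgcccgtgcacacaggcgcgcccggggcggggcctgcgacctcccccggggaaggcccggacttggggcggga
The core occurred once in each of the 3 windows, beginning 171 bases before the start in Serpinh1, 20 in Plod1 and 162 in Loxl4. It was present in the same window of 38.6% of 32851 promoters. Plod3, which also fell, had 4 cores and no GC box in its 250 bases, of which 208 lie in annotated exons and which are therefore not shown, and P4ha3 had no core and 5 GC boxes. The GC box, GGGCGG, searched on both strands and present in 32.7% of promoters, occurred 1, 2 and 3 times in the full 250 bases of Serpinh1, Plod1 and Loxl4.

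Lox, the founding lysyl oxidase, stood at 47.8, 51.5 and 48.0 CPM in controls 1 to 3 and at 86.1, 88.7 and 69.4 CPM in EPS 1 to 3. Every EPS library exceeded every control, and EPS 3 was the lowest of its group. With library totals EPS 1 was the lowest (80.6 CPM, against 88.3 CPM in EPS 3). The log2 fold change was 0.73 ± 0.12 (SE), with adjusted p = 9.52e-04, and Lox was called in all 16 alternative settings run, with adjusted p between 5.07e-08 and 0.00788.

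Loxl1, the paralogue best known for its role in elastic fibres, stood at 115, 122 and 95.6 CPM in controls and at 166, 233 and 151 CPM in EPS. The groups did not overlap, and EPS 2 lay well above the other EPS libraries. The log2 fold change of 0.72 ± 0.18 (adjusted p = 0.00880) was 0.51 without EPS 2. Loxl2, which acts on basement membrane collagen, stood at 69.6, 72.4 and 62.4 CPM in controls and at 74.0, 106 and 71.4 CPM in EPS. EPS 1 and EPS 2 were above every control, EPS 1 only narrowly, and EPS 3 was below control 2. Its log2 fold change was 0.30 ± 0.16 (adjusted p = 0.146). It was 0.10 without EPS 2 (adjusted p = 0.470), and it passed without EPS 1 (0.45, adjusted p = 0.0363) and with library totals (0.74, adjusted p = 0.0174). Over all 16 alternatives the adjusted p ranged from 0.0174 to 0.470.

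Loxl3 and Loxl4, the remaining lysyl oxidase-like enzymes, were the least abundant of the family. Loxl3 stood at 14.5, 11.1 and 12.4 CPM in controls and at 25.1, 33.6 and 22.9 CPM in EPS. This was the largest estimated rise among the 5 called members, with a log2 fold change of 1.10 ± 0.19 (adjusted p = 0.00129), above 82.4% of tested genes. Loxl4 stood at 3.14, 3.24 and 3.57 CPM in controls, from 44 to 54 counts a library, and at 5.40, 6.06 and 6.98 CPM in EPS. Its groups did not overlap either, and its highest library was EPS 3 and not EPS 2 (log2 fold change 0.89 ± 0.23, adjusted p = 0.0107). In the annotation used here 11.6% of the exon bases of Loxl3 overlap Htra2 on the other strand, and since no source used here names a step that marks strand, reads there may come from either gene. Htra2 itself averaged 20.5 CPM in controls and 25.5 CPM in EPS, against 12.7 and 27.2 CPM for Loxl3.

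Plod2 makes the lysyl hydroxylase that acts on the collagen telopeptides, the ends from which stable cross-links form. It stood at 17.9, 14.4 and 16.3 CPM in controls and at 29.9, 28.1 and 21.7 CPM in EPS. The groups did not overlap and EPS 1 was highest with TMM scaling (log2 fold change 0.71 ± 0.17, adjusted p = 0.00634). Plod2 was called in all 16 alternatives.

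Plod1 and Plod3, the paralogues that act on the helical part of collagen, went the other way. Plod1 stood at 149.6, 145 and 135 CPM in controls and at 109, 118 and 118 CPM in EPS, below every control. The log2 fold change was -0.32 ± 0.09 (adjusted p = 0.0186), and the call was lost without EPS 1 (-0.21, adjusted p = 0.117), without control 1 (0.0814), without control 2 (0.0714), with controls 1 and 2 summed (0.0678) and with RLE factors (0.0531). It was called in 10 of 16 alternatives, and with library totals its log2 fold change was 0.12 (adjusted p = 0.636, the highest; the lowest was 0.0171).

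Plod3, whose protein also carries glycosyltransferase activity, stood at 115, 117 and 101 CPM in controls and at 61.5, 64.7 and 81.0 CPM in EPS. The groups did not overlap, and EPS 3 was nearest to the controls. The log2 fold change was -0.68 ± 0.13 (adjusted p = 0.00243), or -0.24 (adjusted p = 0.364) with library totals, the one alternative of 16 in which it was not called. Its adjusted p in the other alternatives was as low as 4.22e-04. Znhit1 on the other strand shares 11.7% of the exon bases of Plod3, and Znhit1 itself averaged 34.5 CPM in controls and 20.5 CPM in EPS.

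Serpinh1, the HSP47 gene (gene body on chromosome 7, 99345376 to 99353239), was the most abundant member. It stood at 832, 834 and 860 CPM in controls and at 460, 567 and 625 CPM in EPS. The control libraries lay close together, and EPS 1 was the lowest of the 6. The log2 fold change was -0.61 ± 0.14 (adjusted p = 0.00642), -0.43 without EPS 1 (adjusted p = 0.0120) and -0.17 (adjusted p = 0.603) with library totals, the one alternative of 16 without a call. The lowest adjusted p over the alternatives was 6.47e-04.

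P4ha3, a catalytic subunit of prolyl 4-hydroxylase, was at the edge of detection, with 11, 12 and 9 counts in controls and 7, 52 and 15 in EPS. EPS 2 held most of its EPS counts, while EPS 1 had fewer counts than any control and the CPM of EPS 3 lay among the controls. The log2 fold change of 0.78 ± 0.64 (adjusted p = 0.323) was -0.21 without EPS 2 (adjusted p = 0.754), and none of the 15 alternatives that tested it gave a call. The lowest adjusted p among these was 0.108.

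EPS 2 was the EPS library with the highest level of Lox, Loxl1, Loxl2, Loxl3 and P4ha3, and narrowly of Plod1 (118.1 CPM, against 117.9 CPM in EPS 3). It was also highest for Col1a1 (1820, 3136 and 1745 CPM in EPS 1 to 3), and for the fibroblast, smooth muscle, skeletal muscle, mesothelial and adipocyte marker sums. Loxl4, Plod3 and Serpinh1 were instead highest in EPS 3, and Plod2 in EPS 1. Levels between genes were compared as CPM per kilobase of exon. The length is that of all annotated exons of a gene merged, not of the transcript expressed, and the order depends on it. By CPM alone Plod1 averaged 143 in controls and Plod3 111, the reverse of their order per kilobase. In controls Serpinh1 averaged 345 ± 6.25 (SD, n = 3) on this scale, followed by Loxl1 at 33.7 ± 4.17, Plod3 at 24.5 ± 1.90, Plod1 at 21.2 ± 1.13, Loxl2 at 12.6 ± 0.946 and Lox at 10.3 ± 0.428. Plod2 (3.00 ± 0.327) and Loxl3 (2.75 ± 0.372) overlapped each other, above Loxl4 (0.787 ± 0.0535) and P4ha3 (0.231 ± 0.0357), and no other neighbours in this order overlapped in controls. In EPS the order was Serpinh1 (225 ± 34.2), Loxl1 (55.5 ± 13.2), then Lox (17.0 ± 2.19), Plod1 (17.0 ± 0.756), Loxl2 (15.5 ± 3.57) and Plod3 (15.3 ± 2.32), whose neighbours overlapped. Loxl3 (5.91 ± 1.22) then overlapped Plod2 (4.92 ± 0.795), and Loxl4 (1.46 ± 0.188) and P4ha3 (0.390 ± 0.339) came last.

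The make-up of each enzyme family was compared as shares of the family's counts per kilobase, which do not depend on library scaling. The summed lysyl oxidase level was 61.7, 64.4 and 54.1 CPM per kilobase in controls and 88.8, 117 and 80.1 in EPS, and Loxl1 held most of it in every library. By counts without exon length, the mean share of Loxl1 was 45.3% in controls and 47.7% in EPS. The share of Loxl2 was 20.9%, 20.8% and 21.3% in controls and 15.4%, 16.7% and 16.5% in EPS, without overlap. Loxl3 took 5.10%, 3.75% and 4.99% in controls and 6.14%, 6.21% and 6.22% in EPS. The shares of Lox, Loxl1 and Loxl4 overlapped between groups.

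Among the lysyl hydroxylases Plod2 took 6.55%, 5.35% and 6.67% of the family in controls and 15.7%, 14.1% and 10.2% in EPS, a gain of 7.14 points. Plod3 took 49.9%, 51.7% and 49.3% in controls and 38.6%, 38.7% and 45.5% in EPS. Plod1 moved from 43.5% ± 0.527 (SD, n = 3) to 45.7% ± 1.49, also without overlap, while its CPM fell with TMM scaling. By counts without exon length, the mean shares of Plod1, Plod2 and Plod3 were 53.0%, 6.01% and 41.0% in controls. In EPS they were 54.6%, 12.7% and 32.7%. The summed Plod level in EPS was 0.765 of that in controls with TMM scaling and 1.03 of it, with overlapping groups, with library totals.

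The prolyl 4-hydroxylase alpha subunits were set beside P4ha3 in the same way. P4ha1, the common catalytic subunit, took 78.8%, 79.0% and 75.1% of the family in controls and 87.6%, 84.95% and 88.1% in EPS. P4ha2 took 20.1%, 19.9% and 24.0% in controls and 11.9%, 12.3% and 11.1% in EPS. P4ha3 took between 0.461% and 2.72% in all 6 libraries. Of the 11 shares tested, 7 did not overlap between groups. No such rate was computed for shares over all genes. By CPM of single genes, an unlike measure, 33.1% of all tested genes lay above the controls and 35.4% below without overlap. Shares of a family add up to the whole, so the 7 are not separate results. Each of these reached p = 0.1 in an exact two-sided permutation test, the lower limit for groups of 3 (adjusted p = 0.157 over the 11). None could therefore pass a threshold of 0.05.

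**Figure D2:**
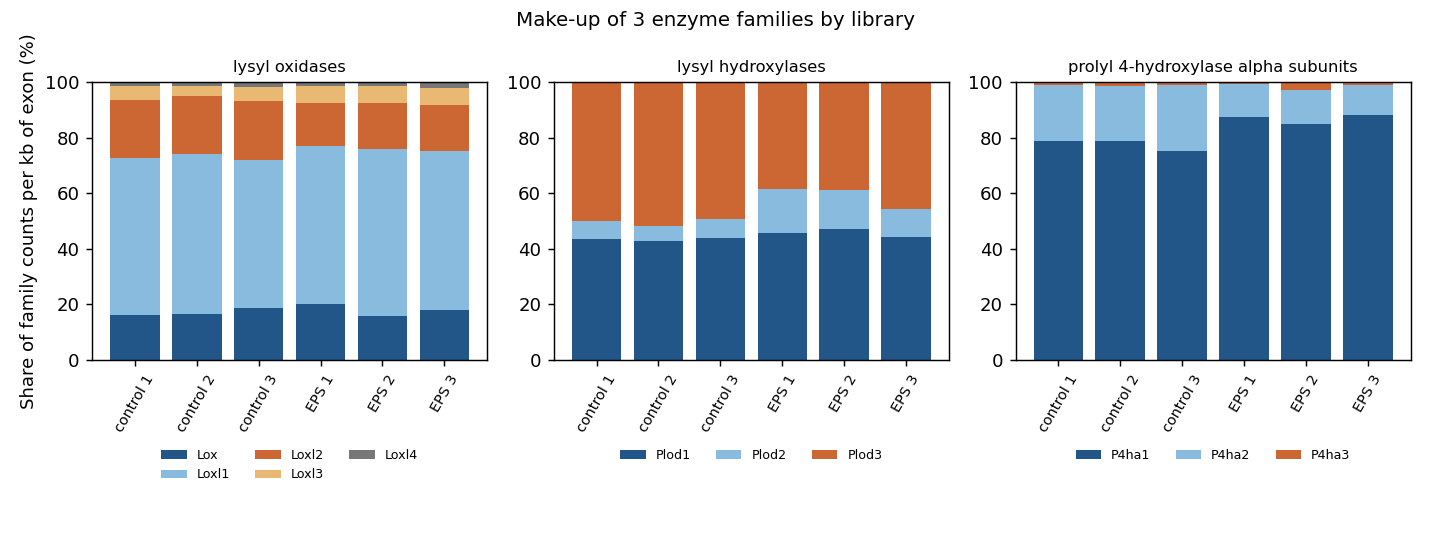
Stacked bars give each gene's share, in percent, of its family's counts per kilobase of exon in each of the 6 libraries. Plod2 takes 10.2% to 15.7% of the lysyl hydroxylases in EPS against 5.35% to 6.67% in controls, and Loxl2 takes a smaller share of the lysyl oxidases in every EPS library than in any control.

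Because the enzymes act on collagen, each member's count was also divided by the summed count of Col1a1, Col1a2 and Col3a1 in the same library. That sum rose from 35906, 38938 and 34241 counts in controls to 109651, 229493 and 124792 counts in EPS. Per 1000 of these counts, Serpinh1 had 324, 324 and 379.5 counts in controls and 60.6, 52.6 and 101 in EPS. Plod3 had 44.7, 45.3 and 44.5 in controls and 8.09, 6.00 and 13.1 in EPS. These members, with Plod1 (58.3, 56.4 and 59.5 against 14.4, 10.95 and 19.1), had the largest falls in the ratio, of 4.03-fold to 5.21-fold.

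The members that rose as genes were also lower per collagen count. Lox had 18.7, 20.01 and 21.2 per 1000 in controls and 11.3, 8.23 and 11.2 in EPS, and Loxl1 had 44.9, 47.5 and 42.2 in controls and 21.8, 21.6 and 24.4 in EPS. Loxl3 moved least, from 5.65, 4.31 and 5.49 to 3.30, 3.12 and 3.71, which is 1.52-fold lower. All 10 members were lower in every EPS library than in any control (exact two-sided permutation p = 0.1 for each, the smallest possible, and 0.1 after adjustment over the 10). Of all tested genes 80% were lower in the same way, with a median log2 difference of -1.73 against -1.14 for the members, so this count is near the background and is not particular to the members.

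**Figure D3:**
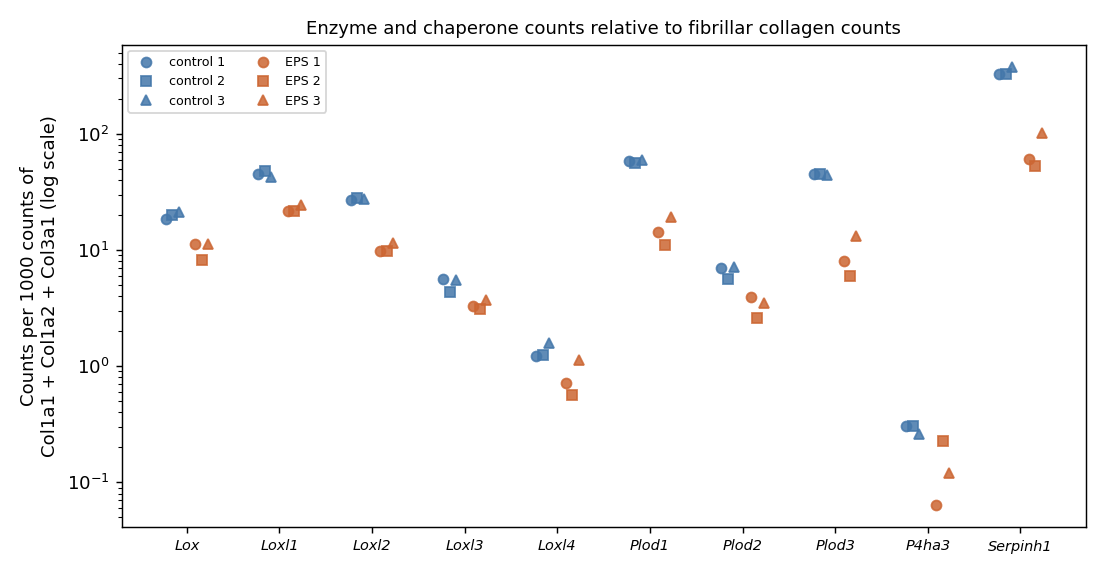
Counts of each gene per 1000 summed counts of Col1a1, Col1a2 and Col3a1 in the same library, on a log axis, with 1 mark per library. Every EPS mark lies below every control mark of the same gene; the difference between group means is largest for Plod3 (5.21-fold) and smallest for Loxl3 (1.52-fold).

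Genes that work beside the members inside the cell moved in both directions. Of 18 other collagen folding and export genes, all tested, 8 were higher and 4 lower, against 29.2% and 30.4% of all genes, with a median log2 fold change of 0.23, which was 0.096 without EPS 2 and 0.67 with library totals. Colgalt1, which adds galactose to hydroxylysine, stood at 130.4, 133 and 128 CPM in controls and at 183, 208 and 213 CPM in EPS (log2 fold change 0.63 ± 0.10, adjusted p = 7.78e-04). P4ha1 rose by 0.62 ± 0.11 (adjusted p = 0.00154) and Fkbp10, a prolyl isomerase that acts on collagen, by 0.80 ± 0.15 (adjusted p = 0.00230). Fkbp7, another isomerase of the family, fell by 0.82 ± 0.16 (adjusted p = 0.00255), and by 0.38 with library totals (adjusted p = 0.184).

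P4hb, the partner subunit of the prolyl 4-hydroxylases, and P4ha2 were named after their values were seen. P4hb stood at 475, 442 and 418 CPM in controls and at 1222, 538 and 637 CPM in EPS, highest in EPS 1, the library with the pancreas counts. Its log2 fold change was 0.84 ± 0.30 (adjusted p = 0.0400), and the call was lost without any single control library (adjusted p of 0.0895 to 0.118) and with controls 1 and 2 summed (0.101). Without EPS 1 the log2 fold change of P4hb was 0.47 (adjusted p = 0.0120). Of the other genes of the list called higher, P4ha1, Ppib, Mia3, Sec24d and Creb3l1 were also highest in EPS 1. Colgalt1 and Fkbp10 were not. P4ha2 had a log2 fold change of -0.40 ± 0.14 (adjusted p = 0.0345) and 0.013 with library totals (adjusted p = 0.958), and it was called in 6 of 16 alternatives. The calls of P4ha2 that were lost include those without any single control library (adjusted p of 0.0556 to 0.120), without EPS 2 (0.0733) and without EPS 3 (0.0713). With any control library left out, 5 genes of the list were higher, and 10 were higher without EPS 1. Of all genes, 3459 to 3589 were higher with a control left out (14185 to 14206 tested), and 31% without EPS 1.

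In the list of procollagen processing and copper supply, 11 of 12 genes were tested. Of these, 2 were higher and 2 lower, against 29.2% and 30.4% of all tested genes. The median log2 fold change was 0.28, which was 0.14 without EPS 2 and 0.73 with library totals. Adamts3, which removes the procollagen amino end, stood at 1.71, 1.85 and 1.39 CPM in controls and at 3.81, 7.61 and 4.51 CPM in EPS (log2 fold change 1.69 ± 0.35, adjusted p = 0.00358). Pcolce2, an enhancer of the protease that trims procollagen, fell by 1.94 ± 0.14 on the log2 scale (adjusted p = 1.34e-05), from 54.0, 48.7 and 49.9 CPM to 15.4, 12.9 and 11.6 CPM. Furin, a protease of the secretory pathway, fell by 0.56 ± 0.11 (adjusted p = 0.00219), or by 0.15 with library totals (adjusted p = 0.510).

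Atp7a, the pump that loads copper into lysyl oxidases, stood at 9.998, 9.18 and 7.87 CPM in controls and at 21.8, 20.8 and 9.46 CPM in EPS. EPS 3 lay within the range of the controls (log2 fold change 0.94 ± 0.31, adjusted p = 0.0313), and the call was lost with limma-voom (adjusted p = 0.0886), without any single control library (0.0671 to 0.104), without EPS 2 (0.0902) and with controls 1 and 2 summed (0.0769). The list had 4 higher genes without EPS 1, 5 without EPS 3, and 1 without EPS 2 or without any single control. Of all tested genes, 31% were higher without EPS 1, 4179 of 14161 without EPS 3 and 3951 of 14087 without EPS 2. Without a single control 3459 to 3589 were higher, of 14185 to 14206 tested.

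Among 13 substrates and matrix partners of lysyl oxidase, 5 were higher and 2 lower, against 29.2% and 30.4% of all tested genes. Their median log2 fold change was 0.59. Col1a1, the main chain of type I collagen, stood at 467, 493 and 424 CPM in controls, against the EPS values given above (log2 fold change 2.28 ± 0.24, adjusted p = 1.11e-04). Its partner chain gene Col1a2 rose by 1.91 ± 0.22 (adjusted p = 1.51e-04) and Col3a1, the type III chain, by 1.43 ± 0.20 (adjusted p = 4.92e-04). Tgm2, a transglutaminase that cross-links matrix proteins by another chemistry, stood at 299.6, 288 and 289 CPM in controls and at 180.2, 196 and 207 CPM in EPS (log2 fold change -0.59 ± 0.10, adjusted p = 0.00129), and at -0.15 with library totals (adjusted p = 0.560). Without EPS 1 or without EPS 3, 8 genes of this list were higher, against 31% and 4179 of 14161 of all tested genes. The median of the list was 0.26 without EPS 2 and 1.02 with library totals.

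**Figure D4:**
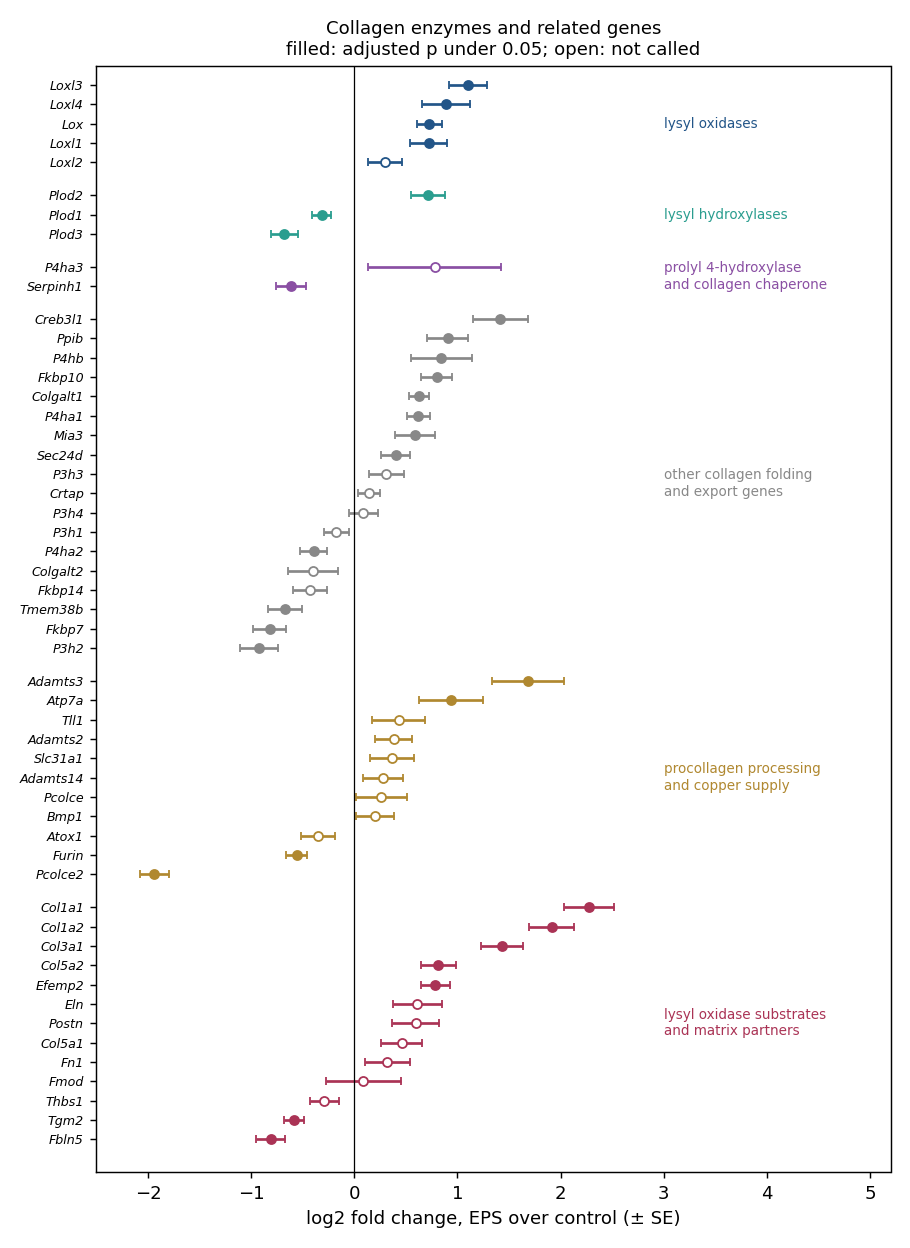
Log2 fold change of EPS over control with its standard error for the 10 members and the 42 tested genes of 3 related lists, on TMM scaling, where filled points passed an adjusted p of 0.05. The lysyl oxidases lie at 0.30 to 1.10, Plod1, Plod3 and Serpinh1 lie below 0, and Col1a1, Col1a2 and Col3a1 lie further right than any member; with library totals, 7 of the plotted genes, Plod1 and P4ha2 among them, turn from below to above 0.

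The genes whose profiles over the 6 libraries lay nearest to a member were found among 11951 genes outside these lists with a mean of at least 50 counts, as the Euclidean distance between log2 CPM profiles centred on each gene's mean. For Lox they were Rad18, Cnot6l and Ttf1, at distances of 0.104, 0.108 and 0.146, against a median of 1.35 over all these genes. For Plod2 they were Ivns1abp, Fam76b and Pou2f1, at 0.167 to 0.190, and for Serpinh1 they were Vim, Cst3 and Orc6, at 0.102 to 0.112. Vim, which encodes vimentin, stood at 1478, 1446 and 1401 CPM in controls and at 785, 984 and 1038 CPM in EPS. EPS 1 was lowest as for Serpinh1, a likeness by which Vim was picked. Distances far below the median follow from taking the nearest of 11951 genes over 6 libraries. Shared regulation was not tested.

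**Figure D5:**
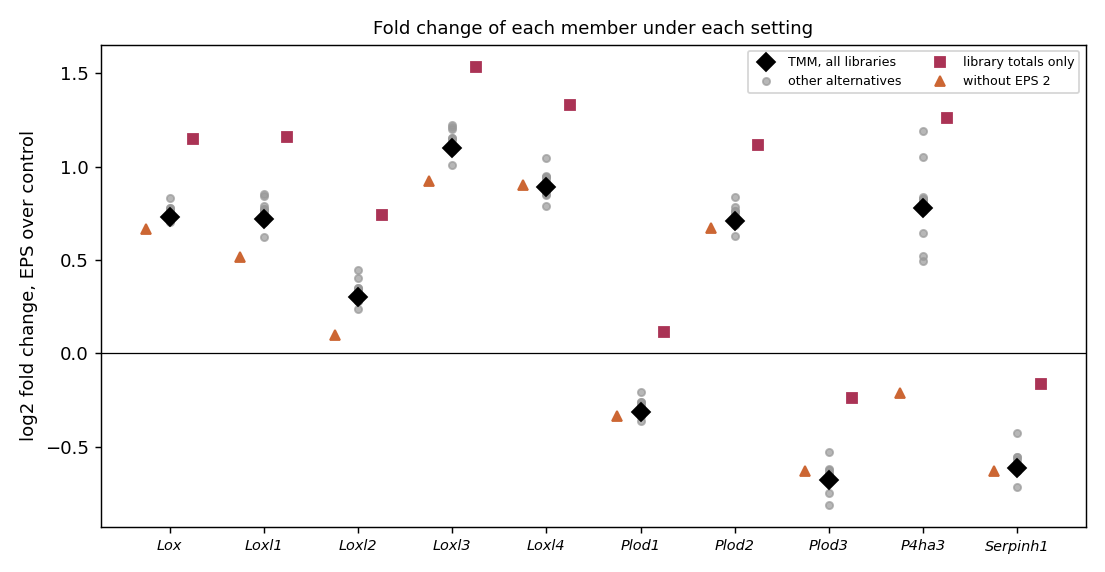
Log2 fold change of each member under TMM with all libraries (diamonds) and under each alternative, with library totals only (squares) and the fit without EPS 2 (triangles) set apart. Lox, Loxl1, Loxl3, Loxl4 and Plod2 lie above 0 in every setting; Plod1 is at 0.12 with library totals, and P4ha3 is at -0.21 without EPS 2.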

How the data were processed

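RNA from peritoneum was sequenced in 3 control and 3 EPS libraries, with depth in the range given above. The table that the authors deposited gives raw read counts by gene symbol, unnormalized as its whole numbers and unequal totals show, and the build is mm10 per the submitters' processing notes. For the aligner and the counter, a name was not given in the sources used here. Per the labels' protocols, mRNA was selected with oligo-dT and copied with random primers, with no step named that marks strand.

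Genes were kept by edgeR's filterByExpr, scaled by TMM and tested by the quasi-likelihood F-test (edgeR 4.0.16, R 4.3.3) without covariates, with Benjamini-Hochberg adjustment over all 13980 genes. Log2 fold changes carry standard errors (SE). Exon lengths, gene positions and overlaps come from GENCODE vM21 (GRCm38, the assembly named mm10). Members, gene lists and tests were chosen with earlier results of these data known. Named genes are the members, up to 4 called genes of lowest adjusted p in each list, and the 3 nearest profiles to Lox, Plod2 and Serpinh1. P4hb, P4ha2 and some other genes of the folding and marker lists were added after their values were seen. On counts simulated for the EPS against control comparison (13322 genes tested), 5.97% of genes changed 1.5-fold, 50.7% changed 2-fold and 100% changed 4-fold were recovered, with 9 false calls. The simulation changed 200 genes and used a dispersion (spread beyond sampling noise) of 0.05. In the data 4088 genes were higher and 4245 lower, so these rates cannot be carried over to them. Alternatives included DESeq2 1.42.0 and limma-voom (limma 3.58.1). Controls 1 and 2 differed least of all pairs (mean chi-square per gene 4.41, against 15.9 and 16.4 with control 3, where sampling noise gives about 1), so they were kept apart and also summed.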

Additional observations from a re-analysis of the deposited data

How the results depend on the processing

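Lox, Loxl1, Loxl3, Loxl4 and Plod2 kept their direction and call in all 16 alternatives. With library totals only, 2182 genes in all and 0 members were lower, while 5657 genes in all and 6 members were higher. The folding and export list then had 11 higher and 0 lower, procollagen processing 7 higher and 1 lower, and the substrate list 9 higher and 0 lower. Under that scaling Plod1 stood at 0.12 and P4ha2 at 0.013, both reversed, and the cause was not tested. With controls 1 and 2 summed, 5 folding genes and 1 processing gene were higher. With limma-voom 1 processing gene was higher, and with RLE factors and with DESeq2 8 substrate genes each. Over all genes 3521 were higher with controls 1 and 2 summed, 3985 with limma-voom, 4355 with RLE factors and 4471 with DESeq2. With 1 library left out in turn, 3459 to 4393 genes were higher and 3545 to 4155 lower, members 5 to 6 and 2 to 3, folding 5 to 10 and 3 to 4, processing 1 to 5 and 2 to 3, and substrates 5 to 8 and 2 to 3. Also with 1 library left out, P4ha3 lay between -0.21 (reversed, without EPS 2) and 1.19, its share difference between -0.404 (without EPS 2) and 0.726 points, and that of Lox between -0.204 (without EPS 1) and 2.05 points. The samples share only a number: same-numbered libraries' deviations correlated at 0.201, -0.0953 and 0.236, and control 2 correlated best with EPS 1, so not every library correlated best with its own number. With the replicate block 3947 genes were higher and 4166 lower, with 5 and 3 members, and P4ha2 was no longer called (adjusted p = 0.0568). Depth limits P4ha3, with 7 to 52 counts a library, and few libraries limit the shares and ratios, whose tests could not pass.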
